A study of Mus musculus with 11 samples.

Results

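Interferon regulatory factors (IRFs) are the transcription factors that switch on interferon genes and the genes that interferons induce. The 8 genes described here, Irf1, Irf2, Irf3, Irf4, Irf5, Irf7, Irf8 and Irf9, were taken by their gene symbols from a table of 31936 mouse genes. They were followed in 11 RNA sequencing libraries of thioglycollate-elicited peritoneal macrophages, the inflammatory macrophages that collect in the abdominal cavity of a mouse after thioglycollate is injected. All cells came from female mice. A further sample was left out by the submitters for improper fragmentation. In 5 libraries (replicates 1, 2, 3, 4 and 6) the cells had received a negative control, and in 6 libraries (replicates 1 to 6) a mimic of miR-150, meaning a synthetic RNA made to act like that microRNA. The labels give no mouse strain, age, dose, time of treatment or identity of the negative control, and leave it unsaid if each replicate was its own mouse or culture. The p-values therefore cover only the variation among these samples, which can be technical. The amount of mimic in the cells was not analysed here.

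IRF proteins share a DNA-binding domain with a row of conserved tryptophans and bind DNA with GAAA repeats. IRF3 and IRF7 wait in the cytoplasm until receptors for foreign nucleic acid activate the kinases TBK1 and IKK-epsilon, which phosphorylate them. They then enter the nucleus and switch on the genes of type I interferons. Secreted interferon binds its receptor, and ISGF3, a complex that holds IRF9 and STAT2, switches on interferon-stimulated genes. IRF7 is itself known as an interferon-stimulated gene in macrophages, whereas IRF3 is known for steady expression. IRF1 activates and IRF2 mostly represses an overlapping group of genes. IRF5 drives inflammatory cytokines and IRF4 alternative activation. IRF8, with its partner PU.1, sets macrophage identity.

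On GRCm38, the GENCODE M21 annotation places Irf1 (ENSMUSG00000018899) on chromosome 11 from 53770014 to 53778374, Irf2 (ENSMUSG00000031627) on chromosome 8 from 46739732 to 46847458, Irf3 (ENSMUSG00000003184) on chromosome 7 from 44997648 to 45002848, Irf4 (ENSMUSG00000021356) on chromosome 13 from 30749226 to 30766976 and Irf5 (ENSMUSG00000029771) on chromosome 6 from 29526625 to 29541871. It places Irf7 (ENSMUSG00000025498) on chromosome 7 from 141262706 to 141266481, Irf8 (ENSMUSG00000041515) on chromosome 8 from 120736358 to 120756694 and Irf9 (ENSMUSG00000002325) on chromosome 14 from 55603571 to 55610030. Irf7 lies on the minus strand and the other 7 genes on the plus strand.

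Promoter sequence is shown for Irf7 and Irf1, which rose with the mimic, and for Irf8, which did not pass the test but holds matches to the same element as Irf1. RefSeq promoter windows of 300 bases, 250 before and 50 after a start site on GRCm38.p6, matched all 8 members, with 11 windows in all. For Irf7, Irf1 and Irf8 each line gives the bases before the more upstream start site that lie in no annotated exon. They run 5′ to 3′ on the strand of the gene. For Irf9 no such base remained before that start site. Capitals mark matches, on either strand, to the GAS element bound by STAT dimers (TTCNNNGAA), the core of the ISRE element bound by IRF proteins and ISGF3 (GAAA, any 2 bases, GAAA) or the NF-kB consensus.

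Irf7, chr7:141266482-141266674, minus strand: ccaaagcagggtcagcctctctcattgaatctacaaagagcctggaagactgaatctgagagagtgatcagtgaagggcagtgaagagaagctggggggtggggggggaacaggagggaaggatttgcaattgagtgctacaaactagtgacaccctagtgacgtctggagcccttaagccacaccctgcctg
Irf1, chr11:53769764-53770013, plus strand: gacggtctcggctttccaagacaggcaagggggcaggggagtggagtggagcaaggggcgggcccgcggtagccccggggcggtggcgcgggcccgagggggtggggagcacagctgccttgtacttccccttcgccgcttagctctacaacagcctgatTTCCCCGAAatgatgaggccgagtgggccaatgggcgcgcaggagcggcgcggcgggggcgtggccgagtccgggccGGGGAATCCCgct
Irf8, chr8:120736108-120736357, plus strand: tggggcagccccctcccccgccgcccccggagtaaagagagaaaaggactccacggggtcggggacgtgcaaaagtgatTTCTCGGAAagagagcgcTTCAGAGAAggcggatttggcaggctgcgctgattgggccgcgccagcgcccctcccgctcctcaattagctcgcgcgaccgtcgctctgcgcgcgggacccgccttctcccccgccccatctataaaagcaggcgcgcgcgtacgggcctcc

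The Irf1 window held a GAS match that began 90 bases before the start site and an NF-kB match that began 13 bases before it, which do not overlap. Irf8 held GAS matches that began 171 and 153 bases before its start site. No match to the 3 motifs was found in the windows of Irf7, Irf9, Irf3, Irf4 and Irf5. Irf2 was the only member with an ISRE core, beside a GAS match and an NF-kB match 17 bases before its start site. The ISRE core and the GAS match are shown next with up to 15 bases on each side. The longest stretch before this start site in no annotated exon begins at 46739516, and the ISRE core lies outside it.

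Irf2 ISRE core, chr8:46739495-46739528, plus strand: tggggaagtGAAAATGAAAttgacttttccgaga
Irf2 GAS, chr8:46739506-46739544, plus strand: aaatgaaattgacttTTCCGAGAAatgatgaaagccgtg

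Of all 32851 RefSeq windows of this length, 8.3% held the GAS motif, 3.4% the ISRE core and 4.5% the NF-kB consensus, all on either strand. A match is a description of these letters and was not tested as a binding site.

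Of the 8 members, 3 were higher with the mimic (Irf7, Irf9 and Irf1) and 0 were lower, each tested with limma across all genes at an adjusted p below 0.05. By the same rule 15.4% of the 12969 genes tested were higher and 14.6% were lower. The median log2 fold change of all tested genes was 0.001. The median of the 8 members was 0.081. At an unadjusted p below 0.05, 2 members (Irf3 and Irf5) were lower, against 20.9% of all genes tested. For 3 of the 8 members every mimic library lay above every control library, a separation seen in 8.89% of all genes tested, and for 0 every mimic library lay below, as in 6.04% of all genes. The sections that follow give library-scaled counts (CPM, the reads of a gene relative to the scaled total of its library) for each library, and take the members by role.

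**Figure D1:**
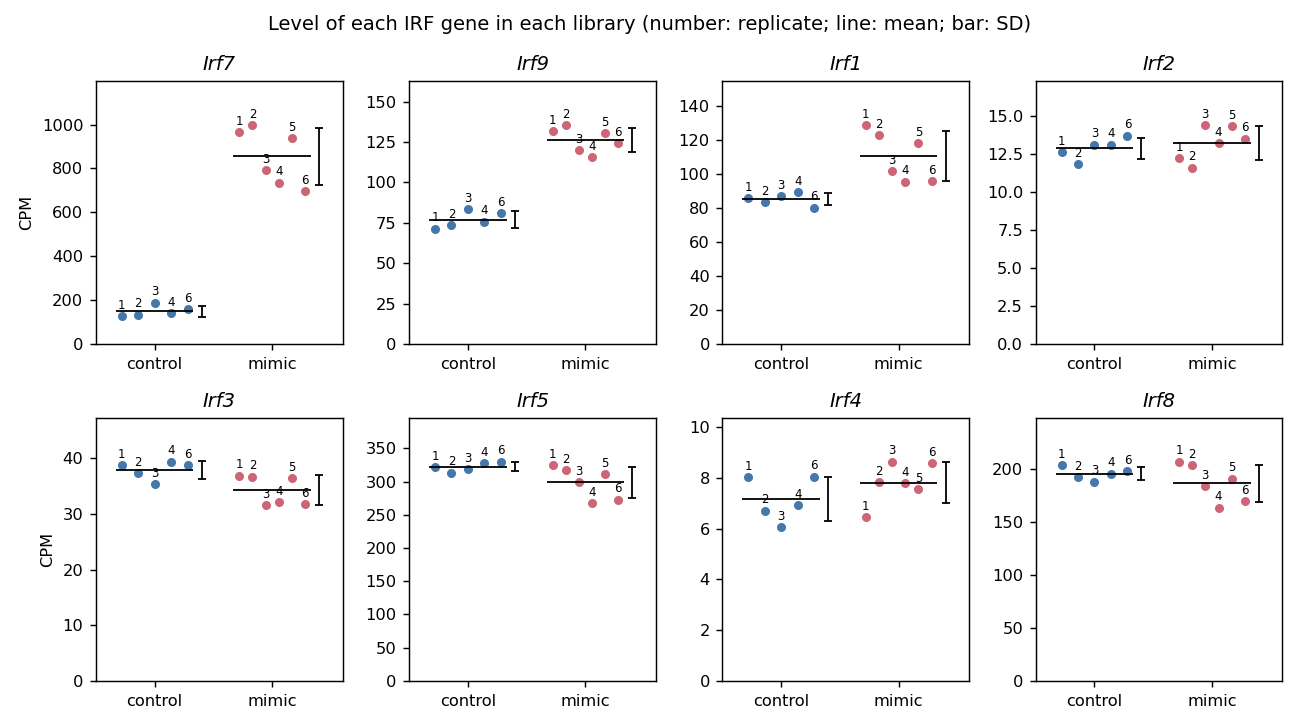
Level of each of the 8 IRF genes in CPM (vertical axes, from 0, a scale for each gene) in the 5 control and 6 mimic libraries. Each point is a library with its replicate number, lines are group means and bars are SDs. All 6 mimic points lie above all 5 control points for Irf7, Irf9 and Irf1, and the groups overlap for the other 5 genes.

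Irf7, which amplifies type I interferon production and is induced by interferon, stood highest of the members in the mimic libraries. In the controls it measured 127.5, 134.4, 189.5, 142.7 and 159.3 CPM in replicates 1, 2, 3, 4 and 6. In the mimic libraries the lowest value was 698.7, the median 866.1 and the highest 998.4 CPM. The groups were far apart, and within the mimic group replicates 1, 2 and 5 (964.3, 998.4 and 939.5 CPM) lay above replicates 3, 4 and 6 (792.6, 736.1 and 698.7 CPM). On the log2 CPM scale the controls averaged 7.22 ± 0.227 (SD, n = 5) and the mimic libraries 9.73 ± 0.22 (SD, n = 6). Irf7 rose 5.68-fold, which is 2.51 ± 0.117 (SE) in log2 units, with a limma adjusted p of 5.31e-09 and rank 23 of all 12969 changes counted from the largest rise. Irf7 shares 45 exon bases with Phrf1 on the opposite strand, which measured 0.076 (limma adjusted p = 0.429). Among the controls, replicate 3 had the highest Irf7 and also the highest Irf9.

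Irf9 encodes the DNA-binding subunit of ISGF3. Its controls measured 71.5, 73.6, 83.6, 75.8 and 81.0 CPM, in the same order of replicates, and its mimic libraries ran from 115.7 through a median of 127.4 to 135.6 CPM. The lowest mimic library was therefore above the highest control. Irf9 rose 1.64-fold, or 0.71 ± 0.0517 (SE) in log2 units (limma adjusted p = 2.29e-08). Irf9 shares 123 of its exon bases with Rnf31 on the same strand, and Rnf31 measured a log2 fold change of 0.34 (limma adjusted p = 0.00029). How reads in those bases were assigned is not given in the sources used here.

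Irf1, an activator of antigen presentation genes and of the response to interferon-gamma, rose least of these 3. Its controls were 85.7, 83.6, 87.0, 89.3 and 80.2 CPM. The mimic libraries ran from 95.4 through a median of 109.8 to 128.7 CPM, all above the controls. Irf1 rose 1.29-fold, or 0.36 ± 0.0743 (SE) in log2 units (limma adjusted p = 0.00236). It shares 135 exon bases with Gm17334 on the opposite strand, which was higher by 0.50 (limma adjusted p = 0.0351). Here too replicates 1, 2 and 5 (128.7, 122.7 and 118.0 CPM) lay above replicates 3, 4 and 6 (101.5, 95.4 and 95.6 CPM), whose values came closest to the controls.

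The control libraries held 18538509 to 22668862 reads and the mimic libraries 20313901 to 25473814. Mimic replicates 3, 4 and 6 stood apart from the other libraries in a trend with transcript length. Relative to the control mean, the median log2 CPM of the top quartile of genes by exon length minus that of the bottom quartile was 0.246, 0.355 and 0.291 in these 3 libraries. It lay between -0.059 and 0.11 in mimic replicates 1, 2 and 5 and between -0.029 and 0.025 in the controls. Without these 3 libraries the members that passed were again Irf7, Irf9 and Irf1, with log2 fold changes of 2.70, 0.78 and 0.53 (limma adjusted p of 2.38e-05, 1.37e-12 and 2.18e-10), and again 0 were lower. In that fit 9.42% of the 12743 genes tested were higher and 6.95% lower. After a per-library correction for exon length the log2 fold changes of the same 3 genes were 2.52, 0.69 and 0.37.

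**Figure D2:**
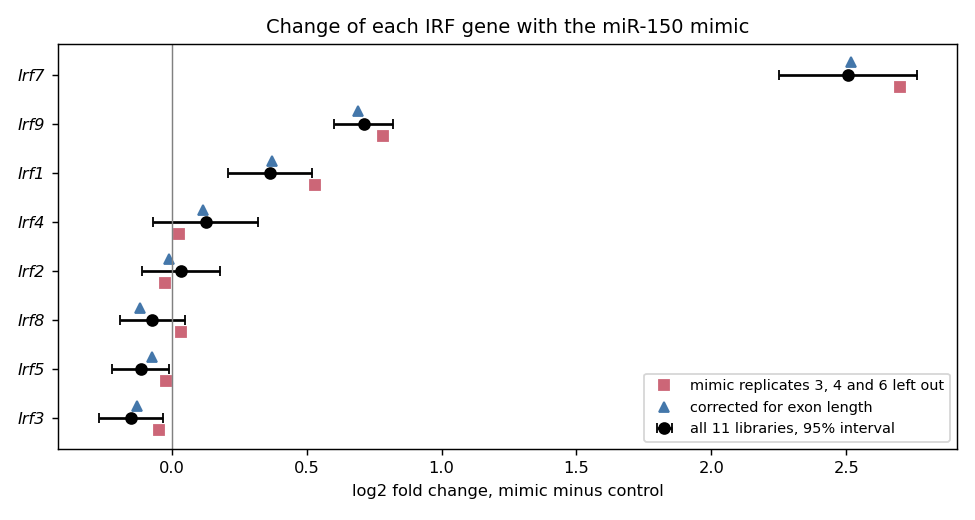
Log2 fold change of each IRF gene, mimic minus control (horizontal axis). Black points with bars are the estimates from all 11 libraries with 95% intervals, red squares the estimates with mimic replicates 3, 4 and 6 left out and blue triangles those after correction for exon length. The intervals of Irf7, Irf9 and Irf1 lie above 0 in their whole length, and the squares of Irf3, Irf5 and Irf8 lie at or near 0.

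Irf2, the mostly repressive counterpart of Irf1, was lowly expressed. The controls measured 12.6, 11.8, 13.1, 13.1 and 13.7 CPM and the mimic libraries 11.6 to 14.4 CPM, with a median of 13.3. The groups overlapped in both directions. The log2 fold change was 0.035, with a 95% interval from -0.11 to 0.18 (limma adjusted p = 0.721).

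Irf3, the activator that needs no prior induction, was slightly lower in the mimic libraries without passing the test. Its controls were 38.8, 37.4, 35.3, 39.4 and 38.8 CPM, and its mimic libraries ran from 31.6 through 34.3 to 36.9 CPM. Replicates 3, 4 and 6 (31.6, 32.1 and 31.8 CPM) lay below every control and the other mimic replicates did not. The log2 fold change was -0.15, with a 95% interval from -0.27 to -0.03 (limma adjusted p = 0.0522). Without mimic replicates 3, 4 and 6 it was -0.047 (limma adjusted p = 0.57). Several other settings moved Irf3 past the threshold, as lower: the voom fit, which weights values and libraries by their precision (-0.18, limma adjusted p = 0.00658), the replicate block (-0.17, 0.0481), scaling to library totals (-0.16, 0.0387) and the filter on mean log2 CPM (-0.15, 0.047). So did leaving out control replicate 3 (adjusted p = 0.0437) or mimic replicate 1 (0.0185), 2 (0.0353) or 5 (0.0393). Irf3 shares 88 exon bases with Bcl2l12 on the opposite strand, which measured -0.11 (limma adjusted p = 0.531).

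Irf5, the activator of inflammatory cytokines, had the highest level of the members in controls. It measured 321.5, 313.6, 318.4, 328.1 and 330.1 CPM there and 268.1 to 324.5 CPM, with a median of 305.1, in the mimic libraries. Of the 6 mimic libraries, 4 lay below every control, the lowest being replicates 4 and 6 (268.1 and 273.0 CPM). The log2 fold change was -0.11, with a 95% interval from -0.22 to -0.01 (limma adjusted p = 0.0949), and -0.021 without mimic replicates 3, 4 and 6 (limma adjusted p = 0.725). It passed as lower in the voom fit (-0.12, adjusted p = 0.0212), with no filter (0.0464) and without mimic replicate 1 (-0.14, 0.0263). Of the exon bases of Irf5, 411 (14.1%) are shared with Tnpo3 on the opposite strand, which was higher by 0.13 (limma adjusted p = 0.0485). The strand setting of the counting is not given in the sources used here, so reads in those bases cannot be told apart.

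Irf8, the partner of PU.1 in macrophage development, was near its control level. Controls measured 204.3, 192.4, 188.3, 196.0 and 198.5 CPM. The mimic libraries spread more widely, from 163.9 through 187.6 to 207.3 CPM, with 2 above every control and 3 below. The 3 below were replicates 3, 4 and 6 (183.9, 163.9 and 169.7 CPM). The log2 fold change was -0.074, with a 95% interval from -0.19 to 0.05 (limma adjusted p = 0.342).

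Irf4, known in macrophages for alternative activation and in lymphocytes for plasma cell and effector fates, was the least abundant member. Its controls were 8.05, 6.72, 6.08, 6.94 and 8.06 CPM and its mimic libraries ran from 6.47 through 7.81 to 8.65 CPM. The groups overlapped over most of their range. The log2 fold change was 0.13, with a 95% interval from -0.07 to 0.32 (limma adjusted p = 0.308). Irf4 rested on 127 to 220 reads per library, the fewest of the members.

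Irf4 and Irf8 are also expressed by lymphocytes and dendritic cells, so markers of other cell types were read beside them. Macrophage markers were abundant, with a summed level of 17777 to 20592 CPM in controls and 15933.2 to 20299 CPM with the mimic over 8 genes. Of the 8, 2 passed as higher and 2 as lower, against 15.4% and 14.6% of all genes tested. Fcgr1 and Adgre1 were higher by 1.32 and 0.175, and Lyz2 and Cd14 lower, at -0.23 and -0.26. Without mimic replicates 3, 4 and 6 Lyz2 and Cd14 did not pass and Cd68 passed as higher. The 3 markers of resident large peritoneal macrophages summed to 9.06 to 9.84 CPM in controls and 7.43 to 11.3 CPM with the mimic. The 6 B cell markers summed to 3.06 to 4.94 CPM in controls and 2.3 to 3.81 CPM with the mimic. Among them Ighm was lower, at -0.75 (limma adjusted p = 0.0302), and did not pass without mimic replicates 3, 4 and 6. Cd79b measured -0.36 (limma adjusted p = 0.212). The 5 T cell markers summed to at most 0.665 CPM in controls and 0.809 CPM with the mimic. The 3 markers of plasmacytoid dendritic cells summed to 1.18 to 1.77 CPM in controls and 1.55 to 2.40 CPM with the mimic. Of these, Ccr9 was higher by 0.63 (limma adjusted p = 0.0417), with 80 reads in controls and 174 with the mimic. Its groups overlapped, and Ccr9 did not pass without mimic replicates 3, 4 and 6. Cox6a2 measured 0.096 (limma adjusted p = 0.808), and Siglech had 3 reads in controls and 5 with the mimic. Markers of conventional dendritic cells summed to 3.41 to 4.73 and 2.77 to 4.08 CPM. Among them Cd209a had 67 reads in controls and 37 with the mimic, and reached the filter through the controls alone. Zbtb46, with 222 and 297 reads, measured -0.04 (limma adjusted p = 0.845). Flt3 (22 and 17 reads), Xcr1 (44 and 37) and Dpp4 (36 and 67) were too low to test. The remaining lists (NK cells, neutrophils, eosinophils, mast cells, and mesothelial cells or fibroblasts) had summed levels of at most 35.9 CPM in any library. The eosinophil list, nearly all Siglecf, summed to 33.5 to 35.9 CPM in controls and 27.1 to 28.9 CPM with the mimic. Siglecf was lower, at -0.31 (limma adjusted p = 4.94e-05), and also passed as lower without mimic replicates 3, 4 and 6. Prg2, Epx and Il5ra, the rest of that list, had 2, 9 and 6 reads over all controls and 3, 10 and 10 over all mimic libraries. The neutrophil list summed to 13.0 to 16.7 CPM in controls and 8.04 to 15.1 CPM with the mimic, nearly all S100a8, which was lower, at -0.56 (limma adjusted p = 0.00789), and did not pass without mimic replicates 3, 4 and 6. S100a9 had 2 reads over all controls and 0 over all mimic libraries. The single markers were named after their values were seen. The part of such cells in the values of Irf4 and Irf8 was not tested. Fewer cells of a type and less RNA per cell cannot be told apart in such bulk libraries.

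The order of the members by level was read per length, as CPM per kilobase of the longest principal transcript in the GENCODE M21 annotation of GRCm38. In controls Irf5 was highest, with a median of 143.5 CPM per kilobase (139.9 to 147.3). Irf7 (74.5) and Irf8 (68.9) came next, with ranges of 66.5 to 98.9 and 66.1 to 71.7 that overlapped. Irf1 (40.1), Irf9 (30.8), Irf3 (19.1), Irf2 (5.23) and Irf4 (1.46) followed, each range clear of the next. With the mimic Irf7 was first, at a median of 452.0 CPM per kilobase (364.7 to 521.1), above Irf5 at 136.1 (119.6 to 144.8) and Irf8 at 65.9 (57.6 to 72.8). Irf9 (51.8, 47.0 to 55.1) and Irf1 (51.4, 44.7 to 60.2) were then next to each other and overlapped, and Irf3 (16.9), Irf2 (5.35) and Irf4 (1.64) closed the order. Counting every annotated exon base in place of the principal transcript, the order in controls was the same, though Irf7 no longer overlapped Irf8 and Irf2 overlapped Irf4. In the mimic libraries Irf1 then came before Irf8 and Irf8 before Irf9, each range overlapping the next, and Irf2 overlapped Irf4.

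The summed level of the 8 genes was 371.2 to 405.7 CPM per kilobase in controls and 664.3 to 871 with the mimic. Without Irf7 the sum of the other 7 genes was 301.1 to 314 in controls and 291.6 to 355.8 with the mimic, ranges that overlapped. Irf7 thus made up 17.7% to 24.4% of the summed level in the control libraries and 54.9% to 59.8% in the mimic libraries. The share of Irf5 was 35% to 38.1% in controls and 16.2% to 18.3% with the mimic, although its own level did not pass the test.

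**Figure D3:**
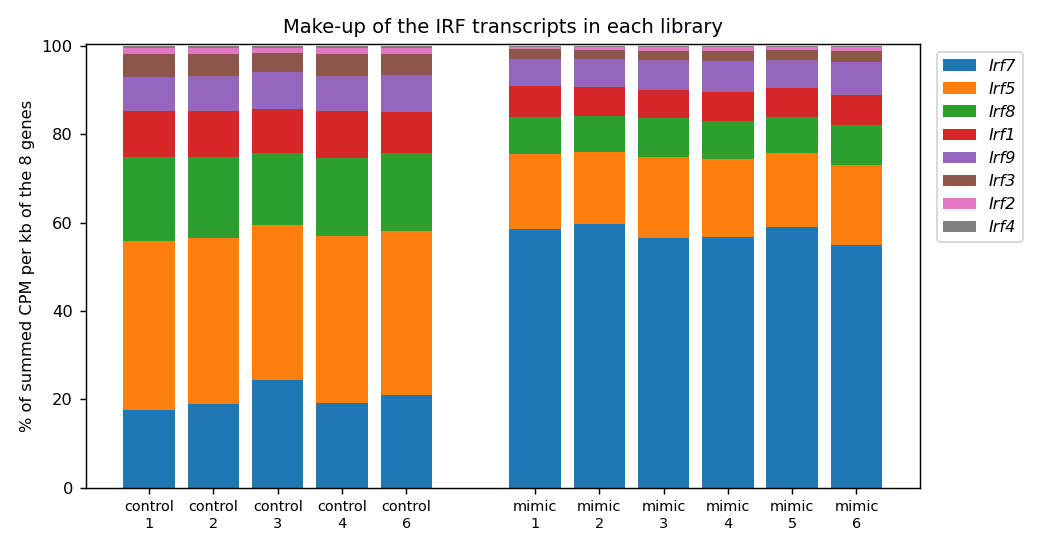
Share of each IRF gene in the summed level of the 8 genes (vertical axis, percent of summed CPM per kilobase of principal transcript) in each of the 5 control and 6 mimic libraries (bars, with replicate numbers). Irf7 takes 17.7% to 24.4% of the control bars and 54.9% to 59.8% of the mimic bars.

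Whether members changed by different amounts was tested for all 28 pairs, on the log2 ratio of the 2 genes within each library, where library scaling cancels. The two-sided exact permutation test over 462 assignments of the libraries to groups was adjusted over the 28 pairs, and 0.00216 is the smallest p it can give. Of the 28 pairs, 16 differed at an adjusted p below 0.05. They were the 7 pairs with Irf7, the 6 other pairs with Irf9, and Irf1 against Irf3, Irf5 and Irf8. The order of these rises was itself resolved over all 11 libraries. Irf7 rose by 1.79 more than Irf9 on the log2 scale (exact permutation adjusted p = 0.00404). Irf9 rose by 0.35 more than Irf1 (exact permutation adjusted p = 0.00758). Without mimic replicates 3, 4 and 6 the log2 fold changes of Irf9 and Irf1 were 0.785 and 0.532. A ratio within a library does not cancel a trend with transcript length.

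The pair of activator and repressor, Irf1 and Irf2, differed by 0.33 on the log2 scale but did not pass (exact permutation adjusted p = 0.0535). The steady and the inducible activator of interferon genes, Irf3 and Irf7, moved apart, with a difference of Irf3 minus Irf7 of -2.65 (exact permutation adjusted p = 0.00404). Irf4 and Irf5, which compete for the adaptor MyD88, differed by 0.24 without passing (exact permutation adjusted p = 0.139). Among Irf3, Irf5 and Irf8, none of the 3 pairs passed (exact permutation adjusted p of 0.112 to 0.35). With mimic replicates 3, 4 and 6 left out, 17 of 28 pairs passed, although only 56 assignments and a smallest p of 0.0179 were then possible.

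The genes whose profile was most like that of Irf7 over the 11 libraries were Ms4a6b, Isg15 and Trim30c. Likeness was the root mean square difference between log2 CPM profiles centred on each gene's mean, over 10510 genes, and measured 0.115, 0.203 and 0.263 on the log2 scale for these 3. Their log2 fold changes were 2.56, 2.42 and 2.69. For Irf9 the nearest were Adar, Slfn2 and Themis2, with differences of 0.040, 0.050 and 0.050 and log2 fold changes of 0.70, 0.77 and 0.74. Fold changes near those of Irf7 and Irf9 follow from picking genes by likeness over the same libraries. Isg15 encodes a ubiquitin-like antiviral protein and Adar an enzyme that edits double-stranded RNA. Ms4a6b, Trim30c and Slfn2 belong to families of similar genes, and the sources used here do not give how reads shared between copies were counted.

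Genes on the route that activates IRF3, IRF5 and IRF7 were higher in 16 of 25 cases and lower in 0. Their median log2 fold change was 0.26. Of all genes tested 15.4% were higher and 14.6% lower. Without mimic replicates 3, 4 and 6 the counts were again 16 and 0, against 9.42% and 6.95% of all genes. The RNA sensors Ifih1 and Ddx58 were higher by 1.28 and 1.49 on the log2 scale, Dhx58, a related helicase, by 1.35, and Tlr7, the endosomal receptor for single-stranded RNA, by 0.71 (largest limma adjusted p 1.75e-07). The kinase genes, named after their values were seen, moved less: Tbk1 was higher by 0.26 (limma adjusted p = 0.000403) and Ikbke by 0.13 (limma adjusted p = 0.0339). The adaptor genes Mavs, Tmem173 (STING) and Ticam1 (TRIF), also named afterwards, measured 0.021, 0.029 and 0.051 and did not pass (limma adjusted p of 0.57 to 0.754). Other adaptor genes, named afterwards too, differed. Myd88, Tank and Azi2 were higher by 0.21, 0.34 and 0.39 (limma adjusted p of 0.00862, 0.000394 and 1.18e-05). Ticam2 and Tbkbp1 measured 0.067 and -0.018 and did not pass (limma adjusted p of 0.372 and 0.855).

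Of 12 genes of interferon signalling, 7 passed as higher and 1 as lower, against 15.4% and 14.6% of all genes tested. The median of the 12 was 0.14 in log2 units. The counts were again 7 and 1 without mimic replicates 3, 4 and 6, against 9.42% and 6.95% of all genes. In that fit Ifnar2 passed as higher and Jak1 no longer did. Stat2, whose product joins IRF9 in ISGF3, rose by 1.56 ± 0.0902 (SE) in log2 units, beside 0.71 for Irf9. The difference between these changes was not tested. The feedback inhibitors Usp18 and Socs1 were higher by 1.82 and 0.68 (limma adjusted p no larger than 0.00513 in these 3). The receptor genes of type I interferon, Ifnar1 and Ifnar2, measured 0.044 and 0.022 and did not pass (limma adjusted p of 0.364 and 0.777), and the only gene lower was Ifngr1, of the interferon-gamma receptor, at -0.19 (limma adjusted p = 0.00693). The receptor genes and Jak1 were named after their values were seen.

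Among 13 partners and regulators of IRF proteins, 3 passed as higher and 4 as lower, against 15.4% and 14.6% of all genes tested. The median of the 13 was -0.12 in log2 units. Trim21, a ubiquitin ligase that acts on IRF proteins, and Batf2 were higher by 0.66 and 0.61 on the log2 scale (limma adjusted p of 1.88e-07 and 1.55e-05), and Etv6 by 0.16. Batf3, a transcription factor that pairs with IRF proteins, was lower by 0.52 (limma adjusted p = 0.00414). The 3 genes for IRF2-binding proteins, which are corepressors, were all among the lower genes: Irf2bpl at -0.29 (limma adjusted p = 0.00382), Irf2bp1 at -0.25 (0.0178) and Irf2bp2 at -0.14 (0.00944). Etv6, Irf2bp1 and Irf2bp2 were named after their values were seen. Without mimic replicates 3, 4 and 6 the counts were 2 higher and 3 lower, against 9.42% and 6.95% of all genes. Etv6 and Irf2bp1 then did not pass. Spi1, which encodes PU.1, measured -0.17 (limma adjusted p = 0.0812) and was also named afterwards.

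**Figure D4:**
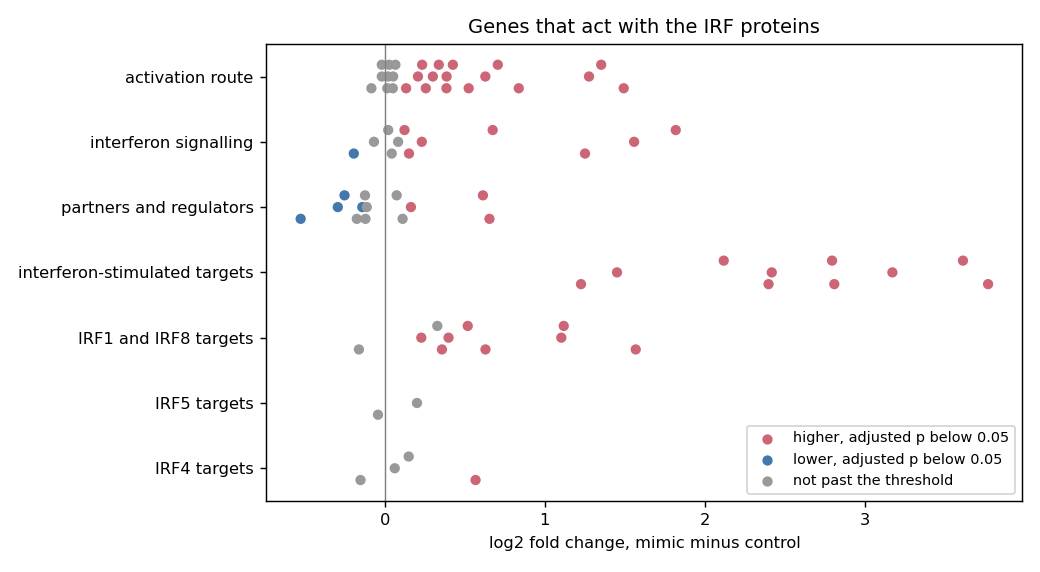
Log2 fold change, mimic minus control (horizontal axis), of every tested gene in 7 lists of genes that act with the IRF proteins (rows). Each point is a gene, red where higher and blue where lower at a limma adjusted p below 0.05, and grey otherwise; points are spread vertically for legibility. The row of interferon-stimulated targets includes Cxcl10 and Ccl5, which needed the mimic libraries to reach the filter. The 8 others in that row lie above 0, and the 2 tested IRF5 targets are grey. Of all genes tested 15.4% were higher and 14.6% lower.

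Textbook targets of IRF3, IRF7 and ISGF3 were higher in 8 of the 8 genes that reached the filter in every control library. Their median was 2.61 in log2 units. Of all genes tested 15.4% were higher. The 8 also passed as higher without mimic replicates 3, 4 and 6, against 9.42% of all genes. The chemokine genes Cxcl10 and Ccl5 needed the mimic libraries to reach the filter and are not counted. They had 62 and 52 reads over the controls and 522 and 384 over the mimic libraries. Ifit3, Oas1a, Ifit1 and Isg15 were higher by 3.61, 1.23, 2.80 and 2.42 (limma adjusted p of at most 1.35e-09). The interferon genes of this list were too low to test, with 2 reads over the control and 15 over the mimic libraries for Ifnb1, and 2 and 0 reads for Ifna4. Targets of IRF1 and IRF8 were higher in 8 of 10 tested genes and lower in 0 (median 0.46), against 15.4% and 14.6% of all genes. Without mimic replicates 3, 4 and 6 the counts were 9 and 0, against 9.42% and 6.95% of all genes. Gbp2, Nlrc5, Tap1 and B2m, which act in cell-autonomous defence and class I antigen presentation, were higher by 1.57, 1.12, 1.10 and 0.63 (limma adjusted p of at most 5.21e-07).

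The list of cytokines linked to IRF5 had 2 of 6 genes high enough to test and 0 called, against 15.4% higher and 14.6% lower of all genes tested. So few genes cannot show if the list differs from all genes. Tnf measured 0.20 and Il1b -0.042 (limma adjusted p of 0.0535 and 0.936), and Tnf passed as higher without mimic replicates 3, 4 and 6. Of the alternative activation genes linked to IRF4, 4 of 6 were tested, and of all genes tested 15.4% were higher. Arg1 alone passed, higher by 0.57 (limma adjusted p = 0.000793), and it did not pass without mimic replicates 3, 4 and 6. Many genes of these target lists respond to several IRF proteins and to other factors, and which IRF protein acted on them was not measured.

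For comparison, the authors' deposited table gives log2 fold changes of 2.49 for Irf7 (limits 2.23 and 2.76), 0.71 for Irf9 (0.60 and 0.82) and 0.35 for Irf1 (0.20 and 0.51). In the authors' deposited table the adjusted p-values of Irf2, Irf3, Irf4, Irf5 and Irf8 lay between 0.0966 and 0.839.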

How the data were processed

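The authors deposited a log2 CPM value for every gene in every library. The tools edgeR, featureCounts, STAR and Subread are named per the submitters' processing notes. Which build, annotation, strand setting and versions they used is not given in the sources used here. Each value equals a number of whole reads, with 0.5 added, divided by a scaled total and logged. Such reads were recovered for 100% of values, within 0.01 read, and summed to 18538509 to 25473814 reads per library. The first row of each of 31936 gene identifiers was used. The authors' deposited p-values, score columns (B and t) and signed linear fold changes rest on a test that is not given. The scores and linear folds were not used further.

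With limma 3.58.1 (R 4.3.3; trend, robust, statmod 1.5.0), a model with a group term was fitted to the deposited log2 CPM, for the 12969 genes that reached a log2 CPM of -1 in 5 or more libraries. The p-values were adjusted over those genes by the Benjamini-Hochberg method. Exon overlaps and lengths came from GENCODE M21 (GRCm38), promoters from RefSeq (GRCm38.p6). The code was tested on simulated data. Members, lists and alternatives were chosen with earlier results of these data known. Named were all members, up to 4 called genes of each pathway list by smallest p (up to 2 where none was called), and 3 nearest profiles for each called member that changed by at least 0.5. Other genes were named after their values were seen. Some genes that this rule names are not reported here. The omission of mimic replicates 3, 4 and 6 and the length correction (lowess, span 0.3) were added after the data were seen. Python 3.11.15, pandas 2.3.3 and numpy 2.4.6 made the tables.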

Additional observations from a re-analysis of the deposited data

How the results depend on the processing

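The count of 3 members higher was the same in all 21 alternatives, and Irf7, Irf9 and Irf1 passed as higher in each. The count of 0 members lower became 1 with library totals, with no filter, with the filter on mean log2 CPM and with the replicate block, 2 in the voom fit, and ranged from 0 to 2 when single libraries were dropped. The cause was not tested. The voom fit also called more genes lower over all genes, 2660 against 1895 in the main fit. So did the fit without mimic replicate 1, with 2 members and 2500 genes lower. Settings with 1 member lower went both ways, with 2126 genes lower for library totals and 1465 for no filter. The 2 members lower in the voom fit therefore came with more genes called lower in general. The replicate number as a block gave 3 members higher and 1 lower, and 1777 higher and 1796 lower over all genes. Same-numbered libraries did not deviate together (correlations of -0.061 to 0.062). That cannot show if the number pairs them, because the length trend of mimic replicates 3, 4 and 6 also enters these deviations. Over all genes, 1200 were higher and 886 lower without mimic replicates 3, 4 and 6, which leaves fewer samples, and 967 and 792 at an adjusted p below 0.01. With each library left out these counts ran from 1490 to 2694 and from 1405 to 2500. Among uncalled members, Irf2 changed sign to -0.023 without mimic replicates 3, 4 and 6 and to -0.010 after the length correction, and Irf8 to 0.036 without those replicates. Pairs of members that differed numbered 16 to 18 under every setting run. With each library left out, the log2 fold change of Irf7 lay between 2.45 and 2.59, that of Irf9 between 0.69 and 0.74 and that of Irf1 between 0.32 and 0.40. Depth limits Irf4 most, with 127 to 220 reads per library.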
